A study of Homo sapiens with 36 samples.

Results

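AU2-94, an inhibitor of the cell cycle kinase CDK4, was compared with vehicle in LNCaP cells after 72 h of treatment at 2 µM. The comparison took the 3 libraries labelled AU2-94, 2uM, 72 hours and the 3 labelled vehicle, 72 hours, which are 6 of the 36 RNA sequencing libraries of the study, and it covered 16341 genes. LNCaP is an established line of androgen-dependent prostate cancer cells. The study set vehicle beside ribociclib (2 µM) and 2 doses (1 and 2 µM) of both AU2-94 and atirmociclib, for 24 h or 72 h, in 12 groups of 3 biological replicates, to learn how inhibition of CDK4 acts on such cells. Atirmociclib is a CDK4-selective inhibitor and ribociclib inhibits CDK4 together with CDK6. All 6 libraries of the main comparison came from total RNA of cells treated a day after seeding, and fewer cells were plated in wells meant for 72 h than in those meant for 24 h. The labels give the vehicle libraries a dose of 2 µM too and do not name the solvent, so no more than vehicle is said of them here. One cell line under 1 growth condition stands behind all values.

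CDK4 with a D-type cyclin phosphorylates the retinoblastoma protein RB, which in its unphosphorylated form holds E2F transcription factors in check at the genes of DNA replication. A second set of genes, those of mitosis, is read later in the cycle through MYBL2, FOXM1 and the CHR promoter element, so both sets lie downstream of the kinase. Androgens drive the kallikreins and TMPRSS2 in luminal prostate cells, and HIF-1 is the factor that turns on glycolytic and matrix genes when oxygen is short.

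The deposited values were normalised counts, scaled between libraries by the authors, and the 6 libraries summed to between 20959012 and 21617499 with 20614 to 21186 genes above 0. Of values under 6, between 16.7 and 37.7% per library were whole multiples of the library's most frequent low value (within 0.02), so read depth could not be recovered and is unknown. Mitochondrially encoded genes held 6.76 to 7.43% of the total. On the log2(value + 1) scale, replicates of the vehicle group correlated at 0.983 to 0.985 over genes and those of AU2-94 at 0.983 to 0.984, while pairs taken across the groups gave 0.972 to 0.975. All 10 luminal prostate markers examined were expressed, and their summed normalised count was 99469 to 101897 in the vehicle libraries and 144100 to 149496 in the AU2-94 libraries. KLK3 (mean 20525 in vehicle and 45215 with AU2-94) and TMPRSS2 (4613 and 13400) made up most of that gap. EPCAM was level (1625 and 1628) and KRT18 alone was lower with AU2-94 (7061 and 6535). The defining basal marker KRT5, the neuroendocrine markers CHGA, INSM1 and NEUROD1 and the leukocyte and endothelial markers CD3E and CDH5 were listed at 0 in both groups. Summed levels over the other lists were small but higher with AU2-94, at 246 to 297 against 151 to 185 for 10 basal and mesenchymal markers, 247 to 287 against 104 to 136 for 8 neuroendocrine markers and 536 to 704 against 259 to 305 for 8 leukocyte and endothelial markers. In 2 of these lists a single gene made up most of the gap. ENO2, also a glycolytic enzyme, had a mean of 95.6 in vehicle and 250.03 with AU2-94, while the neuroendocrine markers SYP (19 and 16.5), NCAM1 (4.52 and 0.552) and CHGB (0.985 and 0.289) were no higher, and VWF had a mean of 217 and 521. The part of such cells in the results was not tested. In bulk RNA, fewer cells of a type and less RNA per cell cannot be told apart.

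After 72 h at 2 µM AU2-94, 494 genes were called higher and 137 lower, at an adjusted p of at most 0.05 (limma, Benjamini-Hochberg over all genes tested) and a difference of at least 1 on the log2 scale. These are 3.02% and 0.838% of the genes tested. By adjusted p alone 2324 genes (14.2%) rose and 2501 (15.3%) fell, and the median log2 fold change over all genes was -0.00052. The 3 AU2-94 libraries lay above all 3 vehicle libraries for 3316 genes (20.3%) and below them for 3677 (22.5%). Higher calls lay mostly on genes of low level: 308 of the 494 had a mean under 50 normalised counts, as did 65 of the 137 lower calls. Genes at or above 500 normalised counts gave 37 higher and 31 lower calls, although 15.4% of them rose and 26.1% fell by adjusted p alone. Under quantile normalisation 325 genes were called higher and 197 lower, so the lower share of calls moved from 21.7 to 37.7%. Long non-coding RNAs made up 3294 of the genes tested and gave 142 higher and 37 lower calls (4.31% and 1.12%).

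**Figure D1:**
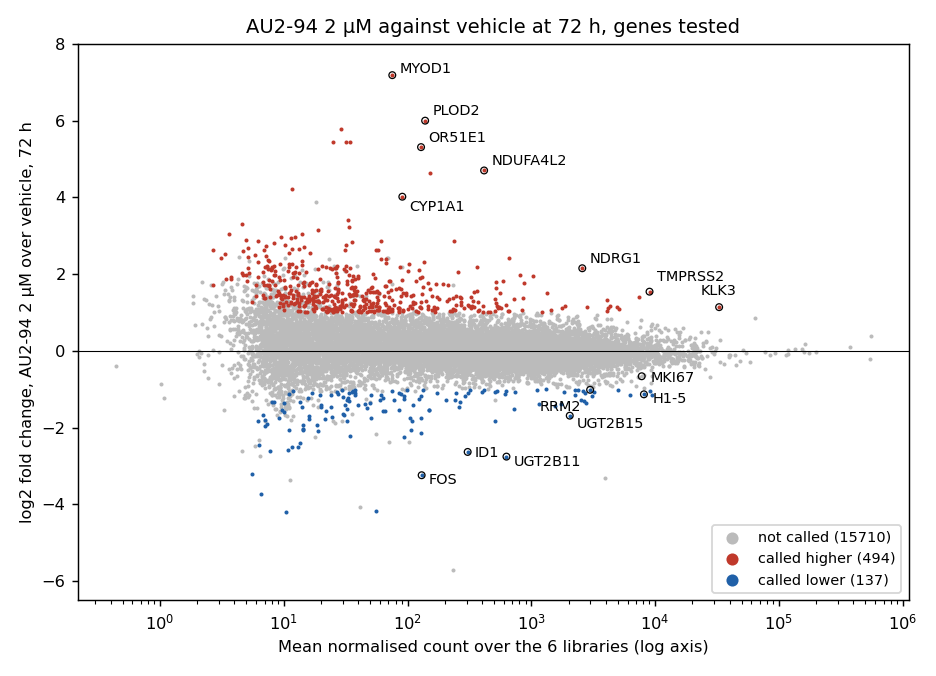
Log2 fold change of each gene tested in AU2-94 2 µM over vehicle at 72 h (y axis) against its mean normalised count over the 6 libraries (x axis, log scale), with the 494 genes called higher in red, the 137 called lower in blue and the remainder in grey. PLOD2, OR51E1 and NDUFA4L2 stand high above the zero line, UGT2B11 and FOS low under it, while MKI67 and RRM2 lie at abundant levels with falls of about 1 log2 unit or less, and the point of MYOD1 is a fitted value since it was listed at 0 in vehicle.

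Members of gene lists are counted by adjusted p alone, and some members named where few moved were chosen for this after their values were seen. Against each count stand the 14.2% of all genes tested that rose and the 15.3% that fell. These shares varied with level. At or above 500 normalised counts 15.4% rose and 26.1% fell, against 9.77% and 2.18% of genes with a mean under 50. The genes of the kinase axis itself changed by small amounts. Of 14 tested members of the CDK4, cyclin D and RB list, 2 rose and 6 fell, with a median log2 fold change of -0.08. CDK4 stood at 2265, 2590.0 and 2404 normalised counts in the vehicle libraries and at 2092, 2130.1 and 2042 with AU2-94 (log2 fold change -0.21, SE 0.06, adjusted p = 0.0187), a small fall without overlap between the groups that did not pass under quantile normalisation (adjusted p = 0.055), without the third AU2-94 library (0.0632) or without the second vehicle library (0.102). CDK4 shares 1369 exonic bases with TSPAN31 on the opposite strand, and the strand setting of the counting is not given in the sources used here. CCND1, a D-type cyclin gene, was 7840.5, 8064 and 7657 in vehicle and 10358, 9604 and 9677 with AU2-94 (log2 fold change 0.33, SE 0.05, adjusted p = 4.57e-05), so all 3 treated libraries lay above the vehicle range. RBL2, the RB relative p130 that represses genes in resting cells, rose as well (0.34, adjusted p = 0.000269). CDKN2C, an INK4 inhibitor of CDK4, went from 443, 373 and 446 to 191, 203 and 188 (log2 fold change -1.11, SE 0.13, adjusted p = 5.74e-06) and was the member with the largest fall. The INK4 gene CDKN2A (-0.60, adjusted p = 0.000898), the cyclin gene CCND3 (-0.38, adjusted p = 0.000705) and the CDK inhibitor gene CDKN1A (-0.36, adjusted p = 6.9e-05) fell too. RB1 gave a log2 fold change of -0.05, adjusted p = 0.642. CDK6 was low, at 14.8, 16.2 and 18.96 in vehicle and 15.1, 40.9 and 13.1 with AU2-94 (0.27, adjusted p = 0.651), and its sign turned without the second AU2-94 library (-0.22). CDK9, a transcription kinase, gave 0.04, adjusted p = 0.715.

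E2F factors and the cyclins they drive fell for the most part. Of 18 members of that list 13 fell by adjusted p in limma and none rose, with 0 higher at an unadjusted p under 0.05, and the median was -0.69. MYBL2, the activator of the late cell cycle genes, stood at 2995, 3114 and 3092 in vehicle and 1703, 1678 and 1651 with AU2-94 (log2 fold change -0.87, SE 0.06, adjusted p = 3.45e-09). FOXM1, the forkhead activator of mitotic genes, went from 3664, 3559.9 and 3608 to 2203, 2007 and 2177 (log2 fold change -0.76, SE 0.05, adjusted p = 5.35e-09). CCNA2, the cyclin of S phase, went from 1458, 1539 and 1499 to 885, 836 and 863 (log2 fold change -0.80, SE 0.07, adjusted p = 7.36e-08). In all 3 genes the groups were apart by several times the spread within either. E2F1 itself, the activating E2F, was 1000.4, 1124 and 953 and 705, 628 and 682 (log2 fold change -0.61, SE 0.07, adjusted p = 6.14e-06). The phosphatase gene CDC25A (-0.97, adjusted p = 5.54e-06), the E2F partner TFDP1 (-0.58, adjusted p = 7e-06) and the kinase gene CDK2 (-0.56, adjusted p = 1.31e-05) were lower as well. FOXM1 has 782 exonic bases in common with ITFG2 on the opposite strand.

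DNA replication genes were shifted down as a group. Of 57 members 35 fell and none rose in limma (1 was higher at an unadjusted p under 0.05), and the median was -0.38 with 1 member, the replisome factor CDC45, past 1 log2 unit. PCNA, the sliding clamp of the polymerases, went from 3316, 3373 and 3219.7 to 2080.3, 1833 and 1903 (log2 fold change -0.77, SE 0.06, adjusted p = 2.42e-08). MCM6, a subunit of the replicative helicase, went from 1797, 1989 and 1839 to 1385, 1303 and 1245 (log2 fold change -0.52, SE 0.06, adjusted p = 2.99e-06). In both genes no AU2-94 library reached the vehicle range. The helicase gene MCM7 (-0.57, adjusted p = 8.08e-08), the origin licensing gene CDC6 (-0.69, adjusted p = 1.48e-06) and the flap nuclease gene FEN1 (-0.65, adjusted p = 1.77e-06) fell by similar amounts. POLD2, a subunit of polymerase delta, gave -0.07, adjusted p = 0.162, and passed as lower with the length and GC trend removed (-0.12, adjusted p = 0.0176).

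Short stretches of promoter are shown for 3 of these genes because their letters can be read against the E2F element. Here and below, stretches are shown only from promoters that held a match. The sequences are from RefSeq on GRCh38.p14, written 5′ to 3′ on the strand of the gene, with matches to the searched E2F letters (TTTCCCGC, TTTCGCGC, TTTGCCGC, TTTGGCGC, either strand) in capitals. The E2F1 stretch lies at chr20:33686386-33686445 (minus strand; first base 60 and last base 1 upstream of the start site), that of MCM6 at chr2:135876497-135876556 (minus strand; first base 113 and last base 54 upstream of the start site) and that of PCNA at chr20:5126649-5126708 (minus strand; first base 86 and last base 27 upstream of the start site). In MCM6 the capitals hold 2 overlapping matches on opposite strands.
E2F1: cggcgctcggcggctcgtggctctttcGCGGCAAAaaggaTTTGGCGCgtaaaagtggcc
MCM6: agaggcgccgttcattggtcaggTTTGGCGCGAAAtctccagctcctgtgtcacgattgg
PCNA: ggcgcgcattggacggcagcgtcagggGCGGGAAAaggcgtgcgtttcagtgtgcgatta
Over the 250 bases before the start site, 13 of 47 DNA replication genes with a promoter in the table held such a match (27.7%) and 5 of 13 genes of the E2F list did (38.5%), against 4.47% of 11639 promoters of genes tested and 2.79% of all 27305. Of the promoters of genes called lower 7 of 92 held one (7.61%). A match describes letters and no binding was measured.

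Genes of nucleotide supply followed. Of 22 members of the deoxynucleotide list 14 fell and none rose in limma (0 at an unadjusted p under 0.05), with a median of -0.32. RRM2, the cell cycle regulated subunit of ribonucleotide reductase, went from 4362, 3998 and 3624 to 2126, 1857 and 1932 (log2 fold change -1.02, SE 0.13, adjusted p = 7.77e-06). TYMS, which makes thymidylate, went from 1955, 2178 and 2052 to 1153, 1079 and 1149 (log2 fold change -0.87, SE 0.09, adjusted p = 5.25e-07), and shares 967 exonic bases with ENOSF1. The groups did not overlap for either gene. Thymidine kinase TK1 (-0.54, adjusted p = 1.61e-06) fell too.

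The histone genes that are transcribed with DNA synthesis had the lowest median of the cell cycle lists. Of 57 tested members 50 were lower, 22 of them by at least 1 log2 unit, and none rose in limma (0 at an unadjusted p under 0.05), with a median of -0.94. The linker histone gene H1-5 went from 10804, 11189.5 and 11465 to 5190.5, 5028 and 5015 (log2 fold change -1.13, SE 0.05, adjusted p = 3.02e-11). H2BC18 went from 8604, 8261 and 9213 to 3762, 4038 and 3940.4 (log2 fold change -1.15, SE 0.06, adjusted p = 8.46e-11), and H2AC16 from 3805, 3662 and 3820.3 to 1526, 1446 and 1579 (log2 fold change -1.31, SE 0.07, adjusted p = 9.94e-11). Each of these core and linker histone genes fell to less than 50% of its vehicle level without overlap. H3C2 (-1.02, adjusted p = 2.59e-09), H2BC4 (-0.85, adjusted p = 2.59e-09) and H1-4 (-0.83, adjusted p = 2.67e-09) showed the same direction. Near-identical copies make single members uncertain: H2BC18 shares 434 bases at 98.8% identity with H3-7, and H4C14 and H4C15 share 1547 bases at 100%. H4C15 was 7210.0, 2139 and 10877 in vehicle and was 921, 2284 and 79.6 with AU2-94 (-3.32, adjusted p = 0.0567), with overlap. It passed without the second AU2-94 library (0.0269) or the second vehicle library (0.0488). It also passed with a filter on a mean of at least 100 (0.0498) and with only the libraries of the groups compared (0.0348). The sum of H4C14 and H4C15, formed after their values were seen, was 12607, 14819 and 13133 in vehicle and 6622, 6658 and 5960.4 with AU2-94, so the pair together did not overlap. H4C12 was 872, 185 and 162 in vehicle and 179, 0 and 0 with AU2-94, with overlap and listed at 0 in 2 treated libraries (adjusted p = 0.0509, or 0.00654 without the first AU2-94 library). It passed as well with a filter on a mean of at least 100 (0.0444), with only the libraries of the groups compared (0.0285) and with the length and GC trend removed (0.0478). Of the bases of H4C12, 387 match H4C11 at 99.2%.

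Mitotic genes fell nearly throughout, by modest amounts. Of 86 members 76 were lower and none rose in limma (1 was higher at an unadjusted p under 0.05), the median was -0.50 and no member passed 1 log2 unit. MKI67, the proliferation antigen Ki-67, went from 9672, 9199 and 9766 to 6068, 5778 and 6235 (log2 fold change -0.66, SE 0.06, adjusted p = 6.94e-08). CDC20, an activator of the anaphase promoting complex, went from 2023, 2237 and 2096 to 1446, 1204 and 1191 (log2 fold change -0.73, SE 0.07, adjusted p = 2.52e-07). PLK1, a kinase of mitotic entry, went from 2857, 2683 and 2898 to 1936, 1712 and 1783 (log2 fold change -0.64, SE 0.07, adjusted p = 1.49e-06). For these 3 genes every treated library was under every vehicle library. The spindle factor TPX2 (-0.62, adjusted p = 6.19e-08), cyclin B1 (-0.54, adjusted p = 4.42e-06 for CCNB1) and topoisomerase TOP2A (-0.48, adjusted p = 0.000165) fell too. CENPN, a centromere protein gene, gave 0.14, adjusted p = 0.0606 and passed under quantile normalisation (0.0137), under equal totals (0.0238) and without the second AU2-94 library (0.0417) or the second vehicle library (0.0364).

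The CHR element is shown in 3 mitotic promoters taken from those that held it. They are again from RefSeq on GRCh38.p14 on the strand of the gene, with TTTGAA or TTCGAA on either strand in capitals. The CDC20 stretch lies at chr1:43358887-43358946 (plus strand; first base 94 and last base 35 upstream of the start site), that of PLK1 at chr16:23678829-23678888 (plus strand; first base 60 and last base 1 upstream of the start site) and that of TOP2A at chr17:40418036-40418095 (minus strand; first base 199 and last base 140 upstream of the start site).
CDC20: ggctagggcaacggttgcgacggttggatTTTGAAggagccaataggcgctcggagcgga
PLK1: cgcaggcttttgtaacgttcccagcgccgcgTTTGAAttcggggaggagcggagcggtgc
TOP2A: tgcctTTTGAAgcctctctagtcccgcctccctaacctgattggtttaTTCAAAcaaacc
Of 74 mitotic genes with a promoter in the table, 36 held a CHR match within 250 bases (48.6%), against 9.73% of promoters of genes tested and 14.6% of all promoters. The letters CCAAT were found in 68.9% of the mitotic promoters and in 84.6% of 52 histone promoters, against 35.4% of promoters of genes tested.

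**Figure D2:**
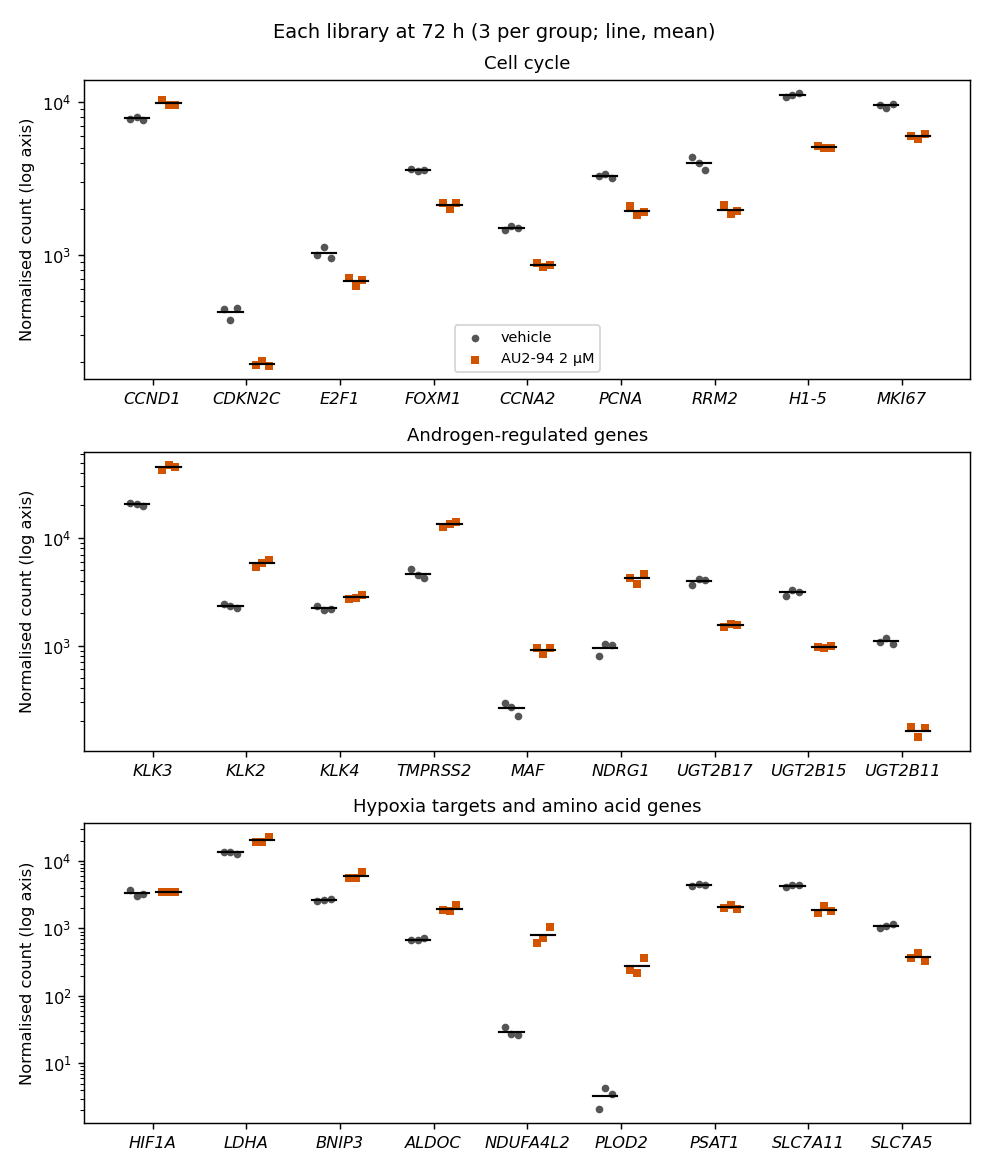
Normalised count (y axis, log scale) of 27 genes in each of the 6 libraries at 72 h, vehicle as grey circles and AU2-94 2 µM as orange squares, with a line at the mean of the 3 libraries. The cell cycle genes other than CCND1 stand lower with AU2-94 (RRM2 and H1-5 by about 1 log2 unit), the androgen-regulated genes split into KLK3, KLK2 and TMPRSS2 above vehicle and the UGT2B genes below it, and HIF1A overlaps between groups while PLOD2 does not.

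Repair and ubiquitin genes tied to S phase moved in part. In the homologous recombination and Fanconi anaemia list 13 of 35 fell and 1, ATR, rose (median -0.25), among them UBE2T, the ubiquitin enzyme of the Fanconi pathway (-0.65, adjusted p = 1.9e-05), and BRCA1 (-0.34, adjusted p = 0.00216). ATM, the damage kinase, gave 0.15, adjusted p = 0.272. Of 25 APC/C and SCF regulators 7 fell and none rose in limma (0 at an unadjusted p under 0.05), with a median of -0.15. The share that fell was near the 26.1% of all genes at or above 500 normalised counts that fell. SKP2, which marks CDK inhibitors for degradation, went from 1879, 1866 and 1806 to 1265, 1314 and 1239 (log2 fold change -0.54, SE 0.08, adjusted p = 6.32e-05), and its cofactor CKS1B from 1006, 971 and 976 to 616, 699.9 and 656 (log2 fold change -0.58, SE 0.08, adjusted p = 1.32e-05). Both genes were without overlap.

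The growth programme around MYC moved in opposite directions. In the MYC network list 5 of 12 genes rose and none fell in limma (0 at an unadjusted p under 0.05; median 0.18). MYC went from 8204, 8299 and 8758 to 9873, 10087 and 10429 (log2 fold change 0.27, SE 0.05, adjusted p = 0.000345). MXD4, which competes with MYC for its partner MAX, went from 1932, 2163 and 2002 to 2877, 2791 and 2883 (log2 fold change 0.49, SE 0.05, adjusted p = 3.46e-07). The treated libraries were above vehicle in both, and MXI1, another such repressor, also rose (0.46, adjusted p = 0.00063), as did MXD1 and MLXIP. Ribosome biogenesis genes went down, 39 of 54 (median -0.28) and none up in limma (0 at an unadjusted p under 0.05). The nucleolar protein genes NPM1 (23469.7, 23759.6 and 22449 in vehicle, 18293, 18009 and 18115 with AU2-94, log2 fold change -0.36, SE 0.03, adjusted p = 1.63e-07) and NCL (-0.36, adjusted p = 1.62e-06) and the rRNA processing gene UTP20 (-0.53, adjusted p = 7.44e-06) were among them. Cytosolic ribosomal protein genes fell slightly, 41 of 79 with a median of -0.15, and none rose in limma (0 at an unadjusted p under 0.05), for example RPS2 (-0.27, adjusted p = 3.21e-05) and RPL10 (-0.29, adjusted p = 4.54e-05). Among protein-coding genes, those with a longest transcript under 2950 bases fell in 24.8% and rose in 10.9%, and those over 5014 bases fell in 13.5% and rose in 18.1%. Many ribosomal and respiratory genes are short, and with the trend on transcript length and GC content removed the medians were -0.13 for ribosomal proteins and -0.19 for the nuclear respiratory genes described further on.

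The kallikreins, secreted proteases of the prostate, rose. Of 15 kallikrein genes written down, 4 passed the filter on low values, and these 4 rose. KLK3, which encodes prostate-specific antigen, went from 20972, 20799 and 19802 to 42554, 47315 and 45775 (log2 fold change 1.14, SE 0.05, adjusted p = 8.48e-12). KLK2 went from 2431, 2343 and 2239 to 5417, 5844 and 6229 (log2 fold change 1.32, SE 0.07, adjusted p = 9.43e-11). The smaller members were KLK4 (0.34, adjusted p = 0.000351) and KLK15, at 56.5, 57.9 and 72.5 against 119.9, 93.7 and 142 (0.91, adjusted p = 0.000999). All 4 were above vehicle in every treated library.

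The wider androgen response was uneven. Of 62 members outside the kallikreins 22 rose, 5 of them by at least 1 log2 unit, and 5 fell (among them SPDEF, SLC38A2, SRP19 and DBI), with a median of 0.12. TMPRSS2, a serine protease gene under androgen control, went from 5129, 4504 and 4205 to 12643, 13471 and 14087 (log2 fold change 1.54, SE 0.07, adjusted p = 2.46e-11). NDRG1, which is also a hypoxia target, went from 798, 1038 and 1010.0 to 4285, 3742 and 4597 (log2 fold change 2.15, SE 0.10, adjusted p = 3.42e-11). MAF, a leucine zipper transcription factor, went from 295, 268 and 221 to 959, 842 and 945 (log2 fold change 1.81, SE 0.09, adjusted p = 9.43e-11). None of these 3 genes overlapped between the groups. The potassium channel gene KCNN2 (0.82, adjusted p = 6.45e-11) and the fatty acid elongase ELOVL5 (0.70, adjusted p = 3.7e-10) rose by less, while AKAP12 and the channel gene TRPM8 completed the 5 members past 1 log2 unit. Of 19 lineage and receptor factors 6 rose and 2 fell, including a rise of ETV1 (0.36, adjusted p = 3.3e-05), which is rearranged in LNCaP, and a fall of the coactivator NCOA1 (-0.29, adjusted p = 0.000409) and of SPDEF. FOXA1, a pioneer factor of the prostate lineage, gave -0.04, adjusted p = 0.457.

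The UGT2B enzymes, which glucuronidate androgens and are repressed by androgens in prostate cells, fell in every tested member. Of 7 genes written down, 5 were tested and 5 of these were lower by at least 1 log2 unit (median -2.06), with 0 higher at an unadjusted p under 0.05. UGT2B11 went from 1078, 1172 and 1041 to 174, 140.2 and 171 (log2 fold change -2.76, SE 0.12, adjusted p = 1.91e-11). UGT2B15 went from 2886, 3308 and 3168 to 967, 942 and 984 (log2 fold change -1.69, SE 0.08, adjusted p = 3.42e-11). UGT2B17 went from 3669, 4133 and 4070.2 to 1489.9, 1579 and 1543 (log2 fold change -1.36, SE 0.06, adjusted p = 3.02e-11). The gap was wide at each, with no treated library near the vehicle range. UGT2B28 (-2.15, adjusted p = 9.86e-08) and UGT2B10 (-2.06, adjusted p = 8.94e-07) fell from 201, 241 and 189.9 and from 154, 179 and 184 normalised counts in vehicle. UGT2B15 and UGT2B17 share 551 bases at 99.3% identity and UGT2B10 and UGT2B11 312 bases at 98.1%, so the split of reads within each pair is uncertain.

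Surface antigens of prostate cancer rose in part. Of 18 tested 7 rose and none fell in limma (0 at an unadjusted p under 0.05; median 0.15). TMEFF2, a transmembrane protein of prostate and brain, went from 3050.2, 3098 and 3050.4 to 6497, 7206 and 6687 (log2 fold change 1.15, SE 0.04, adjusted p = 6.99e-12). The choline transporter gene SLC44A4 (0.94, adjusted p = 1.12e-08) and the receptor gene ERBB2 (0.53, adjusted p = 1.8e-07) rose, and FOLH1, which encodes prostate-specific membrane antigen, rose slightly (0.16, adjusted p = 0.00141). The olfactory receptor genes of prostate rose strongly. OR51E1 went from 4.79, 6.75 and 4.58 to 208, 293 and 254 (log2 fold change 5.31, SE 0.21, adjusted p = 6.99e-12). OR51E2 stood at 4.45, 0 and 3.51 in vehicle, listed at 0 in 1 library, and at 17.3, 24.4 and 24.7 with AU2-94 (adjusted p = 0.000469). Both were above vehicle in each treated library, but stayed under 10 normalised counts in every vehicle library. They therefore passed the filter on low values only through treated libraries.

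Most genes known as targets of the hypoxia factor HIF-1 rose. Of 43 tested members 30 rose, 12 of them by at least 1 log2 unit, and 1, STC2, fell, with a median of 0.63. PLOD2, a lysyl hydroxylase of collagen, went from 2.08, 4.28 and 3.52 in vehicle to 239, 218 and 365 with AU2-94 (log2 fold change 6.00, SE 0.33, adjusted p = 3.28e-10). NDUFA4L2, a mitochondrial protein that replaces a respiratory subunit in hypoxia, went from 34.9, 26.98 and 25.9 to 611, 732 and 1061 (log2 fold change 4.70, SE 0.36, adjusted p = 2.36e-08). BNIP3, a mitophagy receptor, went from 2571, 2611 and 2751 to 5538, 5614 and 6757 (log2 fold change 1.17, SE 0.10, adjusted p = 4.76e-08). The groups were fully apart, and the third AU2-94 library was the highest of the 6 for all 3 genes. The phosphofructokinase regulator PFKFB4 (1.79, adjusted p = 2.42e-08), the histone demethylase KDM4B (0.63, adjusted p = 4.69e-08), the liprin gene PPFIA4 (2.87, adjusted p = 3.3e-05) and the glycoprotein hormone STC1, at 9.003, 13.1 and 19.8 against 89.2, 83.5 and 149 (2.87, adjusted p = 1.46e-05), also rose. Outside this list, ANGPT2, a ligand of the endothelial receptor TIE2, went from 10.7, 7.54 and 14.7 to 269, 303 and 300.0 (log2 fold change 4.65, SE 0.31, adjusted p = 4.34e-09). ANGPT2 overlaps MCPH1 on the opposite strand over 658 exonic bases (9.69%).

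No change of the factor itself was found at the RNA level. HIF1A was 3736, 3051 and 3199 in vehicle and 3414, 3478 and 3411 with AU2-94 (log2 fold change 0.05, SE 0.07, adjusted p = 0.616), and its partner ARNT was 2189.8, 1702 and 1779.9 and 1795, 1867 and 2205 (log2 fold change 0.05, SE 0.09, adjusted p = 0.696). Both overlapped between the groups, and their signs turned when single libraries were left out (HIF1A -0.00941 without the second vehicle library; ARNT -0.038 without the third AU2-94 library and -0.020 without the second vehicle library). Of 10 tested subunits and oxygen sensors 1 rose, and that was HIF1A-AS3, an antisense transcript that shares 299 exonic bases with HIF1A. It was at 0, 0.691 and 1.305 in vehicle, under the floor of 3 normalised counts, and at 58.4, 65.6 and 80.8 with AU2-94 (adjusted p = 1.21e-07). Without a stated strand setting, reads of HIF1A and of HIF1A-AS3 cannot be told apart over the shared bases.

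Glycolysis rose at selected steps. Of 27 members 14 rose and 3 fell (LDHB, PDHA1 and MPC2; median 0.21). ALDOC, an aldolase isoform, went from 674, 667 and 713 to 1850.3, 1816 and 2242 (log2 fold change 1.52, SE 0.10, adjusted p = 2.78e-09). LDHA, the lactate dehydrogenase subunit, went from 13593, 13671 and 12861 to 18919, 18802 and 22713 (log2 fold change 0.59, SE 0.08, adjusted p = 1.39e-05). SLC16A3, a lactate exporter, went from 3.24, 5.85 and 4.66 to 44.7, 40.8 and 100.2 (log2 fold change 3.40, SE 0.44, adjusted p = 1.1e-05). These 3 genes were without overlap, at very different levels. Phosphoglycerate kinase PGK1 (0.81, adjusted p = 2.32e-05), the pyruvate dehydrogenase kinase PDK1 (0.91, adjusted p = 0.000148) and neuronal enolase ENO2 (1.40, adjusted p = 0.000135) rose, while the isoforms GAPDH (-0.05, adjusted p = 0.348) and ENO1 (0.08, adjusted p = 0.334) did not pass, although ENO1 did under quantile normalisation (0.0437). Nuclear genes of the respiratory chain went the other way, 38 of 76 lower (median -0.21) and none higher in limma (0 at an unadjusted p under 0.05). ATP5MC1, a subunit of ATP synthase, went from 2017, 2139.6 and 2054 to 1495, 1411 and 1376 (log2 fold change -0.54, SE 0.07, adjusted p = 1.5e-05), and ATP5F1B (-0.23, adjusted p = 0.000139) fell by less. Of the 13 mitochondrially encoded genes 1, MT-CO1, rose and 2 fell, MT-CO2 and MT-ND3. MT-ND3 gave -0.30, adjusted p = 0.0304 and did not pass without a filter on low values (0.0593), without a variance trend (0.074) or when the second (0.0955) or the third (0.0609) AU2-94 library or any vehicle library (0.0597 to 0.0822) was left out.

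Promoter stretches of 3 of these targets show the core letters of the hypoxia response element (ACGTG or GCGTG on either strand, in capitals; the same core occurs in other elements). They are from RefSeq on GRCh38.p14 on the strand of the gene, PLOD2 at chr3:146161355-146161414 (minus strand; first base 230 and last base 171 upstream of the start site), BNIP3 at chr10:131982012-131982071 (minus strand; first base 148 and last base 89 upstream of the start site) and PGK1 at chrX:78104032-78104091 (plus strand; first base 216 and last base 157 upstream of the start site).
PLOD2: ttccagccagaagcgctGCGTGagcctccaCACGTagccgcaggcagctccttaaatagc
BNIP3: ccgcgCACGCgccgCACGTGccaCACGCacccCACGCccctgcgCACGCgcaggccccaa
PGK1: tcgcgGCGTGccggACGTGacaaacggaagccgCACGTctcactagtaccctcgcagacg
The core was found in 25 of 32 hypoxia promoters (78.1%), in 56.6% of promoters of genes tested and in 146 of 303 promoters of genes called higher (48.2%), so the letters are common everywhere and were no more frequent among higher calls than among genes tested.

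Amino acid and stress genes moved both ways. Of 37 members of the ER stress and ATF4 list 17 fell, 5 of them by at least 1 log2 unit, and 11 rose, with a median of -0.07. The members that fell included genes of amino acid transport and synthesis. SLC7A5, the leucine transporter, went from 1015, 1072 and 1148 to 360.4, 439 and 327 (log2 fold change -1.53, SE 0.09, adjusted p = 1.55e-09). SLC7A11, the cystine importer, went from 4112, 4354 and 4411 to 1691, 2180.4 and 1836 (log2 fold change -1.18, SE 0.08, adjusted p = 5.71e-09). PSAT1, a serine synthesis enzyme, went from 4235, 4511 and 4355 to 2019, 2261 and 1917 (log2 fold change -1.08, SE 0.06, adjusted p = 3.7e-10). No treated library reached the vehicle range in any of these. PHGDH, the first enzyme of serine synthesis (-0.92, adjusted p = 2.53e-08), PCK2 (-0.94, adjusted p = 3.33e-09), the pseudokinase TRIB3 (-0.77, adjusted p = 6.91e-08) and the glutathione-degrading enzyme CHAC1, at 304, 278 and 285 against 114, 129.6 and 109.9 (-1.29, adjusted p = 0.00142), fell too. The next 3 genes were chosen after their values were seen. ATF4, the transcription factor of this response, went from 7054, 6841 and 6525 to 4103, 4666 and 4410.5 (log2 fold change -0.63, SE 0.05, adjusted p = 6.91e-08). ASNS, asparagine synthetase, went from 2609.6, 2495 and 2379.5 to 939, 1107 and 816 (log2 fold change -1.40, SE 0.16, adjusted p = 2.12e-06), and shares 49.3% of its exonic bases with another gene on the same strand. CALR, a calcium-binding chaperone of the endoplasmic reticulum, went the other way, from 23005, 23287 and 23798 to 27338, 28494 and 28449.6 (log2 fold change 0.27, SE 0.03, adjusted p = 1.07e-06).

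The ATF4 element (TGATGNAA on either strand, in capitals) is shown for ASNS, at chr7:97872444-97872503 (minus strand; first base 95 and last base 36 upstream of the start site), and for CHAC1, at chr15:40953235-40953294 (plus strand; first base 236 and last base 177 upstream of the start site), from RefSeq on GRCh38.p14 on the strand of the gene.
ASNS: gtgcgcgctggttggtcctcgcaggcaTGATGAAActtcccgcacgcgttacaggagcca
CHAC1: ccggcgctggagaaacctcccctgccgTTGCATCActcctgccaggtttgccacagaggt
It was found in 3 of 33 promoters of the list (9.09%), against 1.35% of promoters of genes tested, 3.19% of all promoters and 3.26% of promoters of genes called lower.

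Lipid and lysosomal genes moved little. Of 35 cholesterol and SREBP genes 12 fell and 6 rose (median -0.16), with falls of the sterol isomerase EBP (-0.48, adjusted p = 0.000107) and of FDPS (-0.33, adjusted p = 0.000146) and a rise of the sterol reductase TM7SF2 (0.48, adjusted p = 8.48e-06). FASN, fatty acid synthase, gave -0.05, adjusted p = 0.411, and its sign turned under quantile normalisation (0.037), while it passed as lower with the length and GC trend removed (-0.18, adjusted p = 0.000562). Of 51 lysosome and autophagy genes 15 rose and 5 fell (among them ATG5, CTSL and GUSB; median 0.07). The sphingolipid activator PSAP went from 7134, 7452 and 8124 to 11029.6, 11135 and 10692 (log2 fold change 0.53, SE 0.04, adjusted p = 2.61e-08) and the autophagy kinase ULK1 from 1326, 1387 and 1436 to 2482, 2029.6 and 2087 (log2 fold change 0.66, SE 0.08, adjusted p = 3.92e-06), in both cases above vehicle in every library.

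Targets of p53 were mixed. Of 37 tested 14 fell and 7 rose, with a median of -0.15. GDF15, a stress cytokine, went from 3987, 4033 and 4198 to 9391, 11261 and 11583 (log2 fold change 1.39, SE 0.13, adjusted p = 1.83e-07). SESN1 also rose (0.78, adjusted p = 2.74e-08), while the exonuclease gene AEN fell (-0.71, adjusted p = 7.26e-06). In the BCL2 family 2 of 14 rose and 3 fell, the risers being BOK (0.71, adjusted p = 3.68e-06) and BMF and the fallers BAX, BCL2L11 and PMAIP1, which encodes NOXA (-0.89, adjusted p = 0.000261). Of 14 senescence and secretory markers tested 6 fell and 3 rose (GDF15, STC1 and TIMP2; median -0.39). LMNB1, whose loss marks senescent cells, went from 4374, 4677 and 4685 to 2814, 2934 and 2756 (log2 fold change -0.69, SE 0.06, adjusted p = 9.15e-08). IGFBP3, a secreted binding protein of insulin-like growth factors, went from 207, 259 and 203 to 95.5, 56.2 and 78.002 (log2 fold change -1.55, SE 0.19, adjusted p = 5.83e-06), and the chromatin protein gene HMGB2 fell (-0.65, adjusted p = 2.76e-07). CDKN2A and CDKN1A, which rise in many senescent cells, were lower here, as given above.

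ID genes, which encode inhibitors of basic helix-loop-helix factors downstream of BMP receptors, fell steeply. ID1 went from 504, 540.1 and 529.5 to 116, 56.3 and 88.9 (log2 fold change -2.64, SE 0.30, adjusted p = 2.48e-06). ID3 went from 777, 798 and 811 to 269, 182 and 227 (log2 fold change -1.83, SE 0.20, adjusted p = 1.96e-06). ID2 went from 232, 278 and 204 to 113, 122 and 94.8 (log2 fold change -1.10, SE 0.22, adjusted p = 0.00106). All treated libraries were under the vehicle range for these. SMAD9, a SMAD of the BMP pathway, fell (-0.66, adjusted p = 0.000298), whereas BMPR1B, a BMP receptor, went up from 256, 260.4 and 241 to 806, 801 and 768 (log2 fold change 1.65, SE 0.12, adjusted p = 1.63e-08). SMAD6 fell and BMPR2 rose slightly. Over the 13 tested members of the ID and BMP list 5 fell and 2 rose (median -0.27). Immediate early genes were mixed, with 4 of 25 higher (FOSL2, DUSP4, NR4A1 and BTG2) and 6 lower and a median near 0 whose sign depended on the setting. FOS, an AP-1 subunit, went from 182, 289 and 235 to 15.5, 33.9 and 24.6 (log2 fold change -3.24, SE 0.50, adjusted p = 7.75e-05). FOSL2, another AP-1 subunit, went from 418, 476 and 391 to 825, 877 and 913 (log2 fold change 1.03, SE 0.08, adjusted p = 3.16e-08). The phosphatase gene DUSP1 fell (-0.48, adjusted p = 0.000607).

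Interferon and antigen presentation genes rose in part. Of 55 tested 17 rose and 4 fell (OAS3, BST2, HERC5 and TAP2; median 0.21). HLA-C, a class I antigen presentation gene, rose (0.32, adjusted p = 0.000194). ISG20, an interferon-induced exonuclease, went from 155, 112 and 120.2 to 361, 343 and 304 (log2 fold change 1.38, SE 0.18, adjusted p = 1e-05). The peptide transporter gene TAP2 fell (-0.63, adjusted p = 1.61e-05). B2M did not pass (0.12, adjusted p = 0.247), although it did with the length and GC trend removed together with a replicate block (0.0418). IFITM2 rose (1.05, adjusted p = 3.6e-05) but shares 246 bases at 98.8% identity with IFITM1 and 117 bases at 98.3% with IFITM3. Over the 6 libraries IFITM3 had a mean of 1115 normalised counts, above that of IFITM2 (227).

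Epithelial structure genes shifted slightly up. Of 25 keratin and junction genes 14 rose and 2 fell (KRT18 and CLDN7; median 0.27), among them the desmosome gene DSP, from 7865, 7983 and 7785 to 11243, 11854 and 12838 (log2 fold change 0.60, SE 0.06, adjusted p = 2.16e-07), and E-cadherin CDH1 (0.29, adjusted p = 0.000154). KRT8 gave 0.13, adjusted p = 0.0583, and passed under quantile normalisation (0.00302), under equal totals (0.022) and without the third vehicle library (0.0292). Of 32 matrix and integrin genes 7 rose and 1, LAMC1, fell (median 0.05, or -0.014 without the second AU2-94 library). LAMA5, a laminin chain, went from 2516, 2739.9 and 3589 to 5163, 5108 and 5197 (log2 fold change 0.82, SE 0.11, adjusted p = 1.94e-05), and the collagen genes COL6A1 (0.62, adjusted p = 6.72e-08) and COL18A1 (1.11, adjusted p = 7.62e-07) and the protease gene MMP7 (2.22, adjusted p = 1.26e-06) rose. COL18A1 shares 1563 exonic bases with SLC19A1 on the opposite strand. Of 12 neuronal markers tested 4 rose and none fell in limma (0 at an unadjusted p under 0.05), these being the synaptotagmin SYT4 (1.10, adjusted p = 1.37e-10), MAP2, ENO2 and TUBB3. Among 7 basal and mesenchymal markers tested 2 rose and 1, SNAI1, fell, the risers being TWIST1 (1.27, adjusted p = 4.83e-06) and KRT14, at 22.9, 25.2 and 4.73 against 83.2, 51.8 and 39.3 (1.88, adjusted p = 0.00286). VIM, vimentin, gave 0.68, adjusted p = 0.0638, and passed with a replicate block (0.0225) and without the first AU2-94 library (0.031) or the third vehicle library (0.0249). VWF, a gene of endothelial cells, went from 213, 184 and 252 to 477, 621 and 465 (log2 fold change 1.26, SE 0.19, adjusted p = 6.53e-05), while CDH5 was listed at 0.

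Genes of DNA methylation moved both ways. Of 14 tested 4 fell and 2 rose (median -0.10), HELLS and MBD2 among the former and DNMT3A among the latter. The share that fell was near the 26.1% of all genes at or above 500 normalised counts that fell. UHRF1, which recruits the maintenance methyltransferase, went from 1717, 2180.1 and 1830.5 to 1036, 1052 and 1078 (log2 fold change -0.85, SE 0.09, adjusted p = 8.09e-07). DNMT1, that enzyme, fell by less (-0.34, adjusted p = 0.00494), and TET1, which oxidises methylcytosine, rose from 206, 195 and 229 to 310.1, 321 and 369 (log2 fold change 0.66, SE 0.11, adjusted p = 0.000159).

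The largest changes at a mean of at least 50 normalised counts included genes outside these groups. MYOD1, the muscle determination factor (ENSG00000129152; GRCh38 chromosome 11, 17719571 to 17722136, plus strand), was listed at 0 in all 3 vehicle libraries and at 96.5, 165 and 190.3 with AU2-94 (adjusted p = 1.47e-09). CYP1A1, a cytochrome P450 induced through the aryl hydrocarbon receptor (ENSG00000140465; chromosome 15, 74719542 to 74725536, minus strand), went from 6.24, 13.2 and 9.698 to 226, 119.8 and 169 (log2 fold change 4.02, SE 0.37, adjusted p = 1.98e-07). PLOD2 (ENSG00000152952; chromosome 3, 146035139 to 146163725, minus strand) and OR51E1 (ENSG00000180785; chromosome 11, 4643420 to 4655488, plus strand), described above, had the largest fitted rises among genes with counts in every vehicle library. VSTM2L went from 14.2, 17.2 and 13.9 to 83.2, 108 and 107 (log2 fold change 2.64, SE 0.23, adjusted p = 1.21e-07) and TNS1, a focal adhesion protein gene, from 20.5, 16.6 and 8.196 to 133, 85.3 and 69.6 (log2 fold change 2.63, SE 0.36, adjusted p = 2.01e-05). None of these overlapped with vehicle. On the falling side MYB, a transcription factor of progenitor cells (ENSG00000118513; chromosome 6, 135181308 to 135219173, plus strand), went from 171, 162 and 172 to 56.2, 45.7 and 39.96 (log2 fold change -1.82, SE 0.22, adjusted p = 6.9e-06). PCDH7, a protocadherin, went from 165, 127 and 167 to 20.6, 32.3 and 45.8 (log2 fold change -2.24, SE 0.36, adjusted p = 0.000123), and SLC2A13, a myo-inositol transporter, from 65.6, 67.7 and 101 to 17.6, 36.1 and 16.3 (log2 fold change -1.76, SE 0.36, adjusted p = 0.00108). The non-coding gene ENSG00000290674 was 84.7, 49.7 and 117 in vehicle and 83.8, 0 and 0 with AU2-94, listed at 0 in 2 treated libraries (adjusted p = 0.0471). Its groups overlapped, and it did not pass with a replicate block (0.0645) or when the second (0.195) or the third (0.192) AU2-94 library or any vehicle library (0.073 to 0.117) was left out. Of its sequence, 1589 bases match another gene at 99.9% identity.

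No difference between the doses was detected at 72 h. Against AU2-94 at 1 µM, no gene passed the adjusted p in limma (0% higher and 0% lower at either rule), the smallest adjusted p was 0.996, and 414 genes were higher and 318 lower at an unadjusted p under 0.05, of 16341. The median 95% interval of a gene's difference reached 0.26 log2 units to either side, so differences smaller than that were not resolved for a typical gene. KLK3 was 48236, 46629.7 and 47444 at 1 µM and 42554, 47315 and 45775 at 2 µM, a difference of -0.07 with a 95% interval from -0.17 to 0.03. For MKI67 the values at 1 µM were 5732, 5919.7 and 5618, and the difference was 0.07 (-0.05 to 0.18). PLOD2 at 1 µM was 319, 299 and 352, with a difference of -0.27 (-0.97 to 0.42). The libraries of both doses overlapped in these 3 genes.

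Against atirmociclib at the same dose and time, AU2-94 left the cell cycle genes at higher levels. At an adjusted p of at most 0.05 and 1 log2 unit 278 genes were higher with AU2-94 (1.7%) and 68 lower (0.416%), and by adjusted p alone 1427 were higher (8.73%) and 1814 lower (11.1%). Of the 86 mitotic genes 77 were higher with AU2-94 than with atirmociclib, of 57 histone genes 46, of 57 DNA replication genes 34 and of 18 E2F list genes 12. PLK1 was 869, 738 and 799.6 with atirmociclib and 1936, 1712 and 1783 with AU2-94 (difference 1.17, SE 0.07, adjusted p = 6.3e-10). H1-5 was 1224, 1318 and 1420.1 and 5190.5, 5028 and 5015 (difference 1.94, SE 0.05, adjusted p = 1.82e-14). The groups were far apart in both genes. Androgen-regulated genes differed the other way in part: 26 of 62 androgen response genes were lower with AU2-94 and 4 higher (among them PLPP1, SLC38A2 and IQGAP2). TMPRSS2 was 18747, 20755 and 20223 with atirmociclib (difference -0.57, adjusted p = 7.05e-06). All 5 UGT2B genes tested were lower with AU2-94, for instance UGT2B15, at 1208, 1189 and 1343 with atirmociclib (difference -0.37, adjusted p = 0.00232). When libraries were scaled to equal totals, the median difference of all genes against atirmociclib moved to 0.10, and 389 genes were then called higher and 45 lower, or 2527 and 857 by adjusted p alone. Under quantile normalisation the calls were 198 higher and 109 lower.

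The widest differences from atirmociclib lay in a few further genes. ID1 was 424, 196 and 186 with atirmociclib and 116, 56.3 and 88.9 with AU2-94 (difference -1.57, adjusted p = 0.000908). With atirmociclib at 1 µM it was 61.6, 75.8 and 87.3, and with AU2-94 at 1 µM 56.4, 69.5 and 79.7, so the gap between the agents was seen at 2 µM and the libraries overlapped at 1 µM. CYP1A1 was 53.6, 17.3 and 20.3 with atirmociclib, under the AU2-94 libraries (difference 2.59, adjusted p = 4.83e-05). The matrix protease MMP7 was 112, 187 and 185 with atirmociclib (difference -1.56, adjusted p = 9.82e-05). Lower with AU2-94 were also the giant muscle protein gene TTN (-2.13, adjusted p = 0.00394), the deiodinase DIO3 (-1.63, adjusted p = 0.000875) and the non-coding CEROX1 (-1.55, adjusted p = 0.00277). Higher were the transcription factor FOXN4 (2.99, adjusted p = 7.43e-08) and the non-coding ENSG00000287064 (2.50, adjusted p = 1.2e-08). Both H4C14 and NXF2 have an identical copy elsewhere, so their own levels are uncertain. H4C14 was 8.63, 1319.8 and 13.6 with atirmociclib and 5701, 4373 and 5881 with AU2-94 (adjusted p = 0.000461). NXF2, an RNA export factor, was 60.9, 0 and 0 with atirmociclib, listed at 0 in 2 libraries, and 207, 36.5 and 54.7 with AU2-94 (adjusted p = 0.0174), with overlap. It did not pass when only the libraries of both groups entered the fit (0.0588), without the first AU2-94 library (0.0825) or without the second (0.093) or the third (0.0934) atirmociclib library.

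Ribociclib at 2 µM differed from AU2-94 in fewer genes, with 22 genes higher with AU2-94 (0.135%) and 12 lower (0.0734%) at both criteria, and 226 (1.38%) and 320 (1.96%) by adjusted p alone. Without the second AU2-94 library the counts were 9 higher and 3 lower, and without the third 9 and 7. The lower count was 7 without the second ribociclib library and 5 without the third. Equal totals gave 326 higher and 167 lower genes by adjusted p alone, and quantile normalisation 14 and 18 calls. Of the histones 19 of 57 were higher with AU2-94, of the mitotic genes 14 of 86 were higher and 2 lower (KIF22 and CENPN), and of the androgen response genes 24 of 62 were lower. KLK3 was 47194, 48315 and 51463 with ribociclib, a difference of -0.12 with a 95% interval from -0.21 to -0.02 before adjustment (adjusted p = 0.189). ID1 was 226, 393 and 207 with ribociclib and lower with AU2-94 (difference -1.65, adjusted p = 0.00506), as was ID3 (-1.09, adjusted p = 0.00593). KLF5, a Krüppel-like factor of epithelia, was 95.9, 98.4 and 115 with ribociclib (difference -1.11, adjusted p = 0.000916). CYP1A1 was higher with AU2-94, at 14.8, 31.2 and 22.1 with ribociclib (difference 2.88, adjusted p = 0.000327). FOXN4 was higher as well (1.90, adjusted p = 0.000382). MYOD1 (2.57, adjusted p = 0.00316), KLF7 (1.94, adjusted p = 0.014) and CHAC1 (1.60, adjusted p = 0.00307) were higher and TTN (-2.05, adjusted p = 0.0243) and INAVA (-1.48, adjusted p = 0.0242) lower with AU2-94, but none of these 5 calls held under every setting. With only the libraries of both groups in the fit the adjusted p was 0.0745 for MYOD1, 0.0658 for KLF7, 0.0857 for CHAC1 and 0.0783 for TTN. KLF7 also failed without the second AU2-94 library (0.0805) or the second ribociclib library (0.0644), TTN without the second (0.0949) or the third (0.0905) AU2-94 library or the second (0.101) or the third (0.0963) ribociclib library, and INAVA without any AU2-94 library (0.0513 to 0.0851) or without the first (0.0728) or second (0.0954) ribociclib library.

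**Figure D3:**
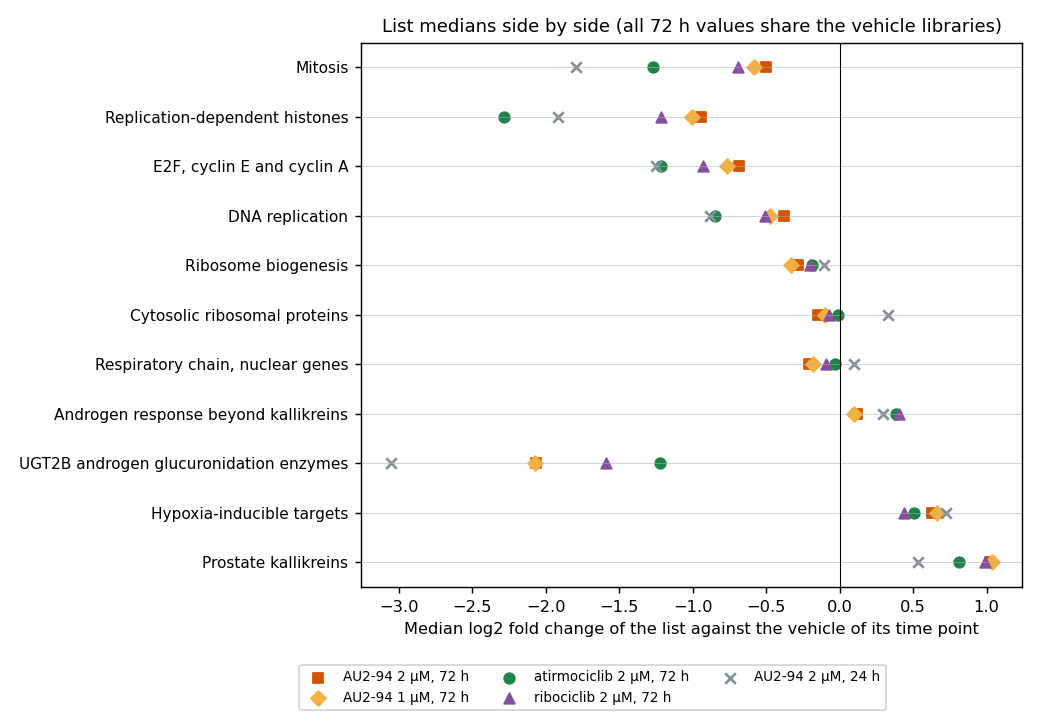
Median log2 fold change (x axis) of 11 gene lists (rows) for AU2-94 2 µM, AU2-94 1 µM, atirmociclib 2 µM and ribociclib 2 µM at 72 h and for AU2-94 2 µM at 24 h, each against the vehicle of its time, so that all values at 72 h share the same vehicle libraries. For the mitotic genes the medians at 72 h are -0.50 with AU2-94 2 µM, -0.59 with 1 µM, -0.69 with ribociclib and -1.27 with atirmociclib, and -1.80 with AU2-94 2 µM at 24 h.

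The effect of AU2-94 2 µM differed between 24 h and 72 h, each against its own vehicle. In the interaction fit of limma on 16850 genes 501 genes had a higher log2 fold change at 72 h than at 24 h (2.97%) and 92 a lower one (0.546%), past 1 log2 unit, and 1561 (9.26%) and 1563 (9.28%) by adjusted p alone. Equal totals gave 1982 and 1060 by adjusted p alone, and quantile normalisation 411 and 159 calls. Of 86 mitotic genes 78 had a higher, that is less negative, fold change at 72 h, with list medians of -1.80 at 24 h and -0.50 at 72 h. PLK1 was 2624, 2624 and 2524 with vehicle and 362, 450.3 and 396 with AU2-94 at 24 h, a log2 fold change of -2.69 against -0.64 at 72 h (difference 2.05, SE 0.13, adjusted p = 3.22e-12). For histones 39 of 58 and for DNA replication 32 of 57 genes showed the same direction. UGT2B15 fell from 3308, 3278 and 2881 to 412, 387 and 342 at 24 h, further than at 72 h (difference 1.36, SE 0.12, adjusted p = 1e-09).

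Some genes turned direction between the times. ID1 was 560.2, 591 and 685 in vehicle and 986, 943 and 807 with AU2-94 at 24 h, a log2 fold change of 0.57, against -2.64 at 72 h (difference -3.21, SE 0.33, adjusted p = 2.09e-08). FOS was 24.1, 7.02 and 15.1 in vehicle and 229, 97.3 and 47.9 with AU2-94 at 24 h (difference -6.05, SE 1.00, adjusted p = 4.12e-05). In FOS the vehicle level itself was higher at 72 h than at 24 h. Ribosomal protein genes had a median of 0.33 at 24 h and -0.15 at 72 h, and 77 of 79 had a lower fold change at 72 h. Nuclear respiratory genes showed 0.10 and -0.21, with 45 of 76 lower. Hypoxia targets were raised at both times, with medians of 0.72 at 24 h and 0.63 at 72 h, and 1 of 44 members, CA12, passed the test of the difference. Time and seeding density changed together between the wells and cannot be told apart.

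**Figure D4:**
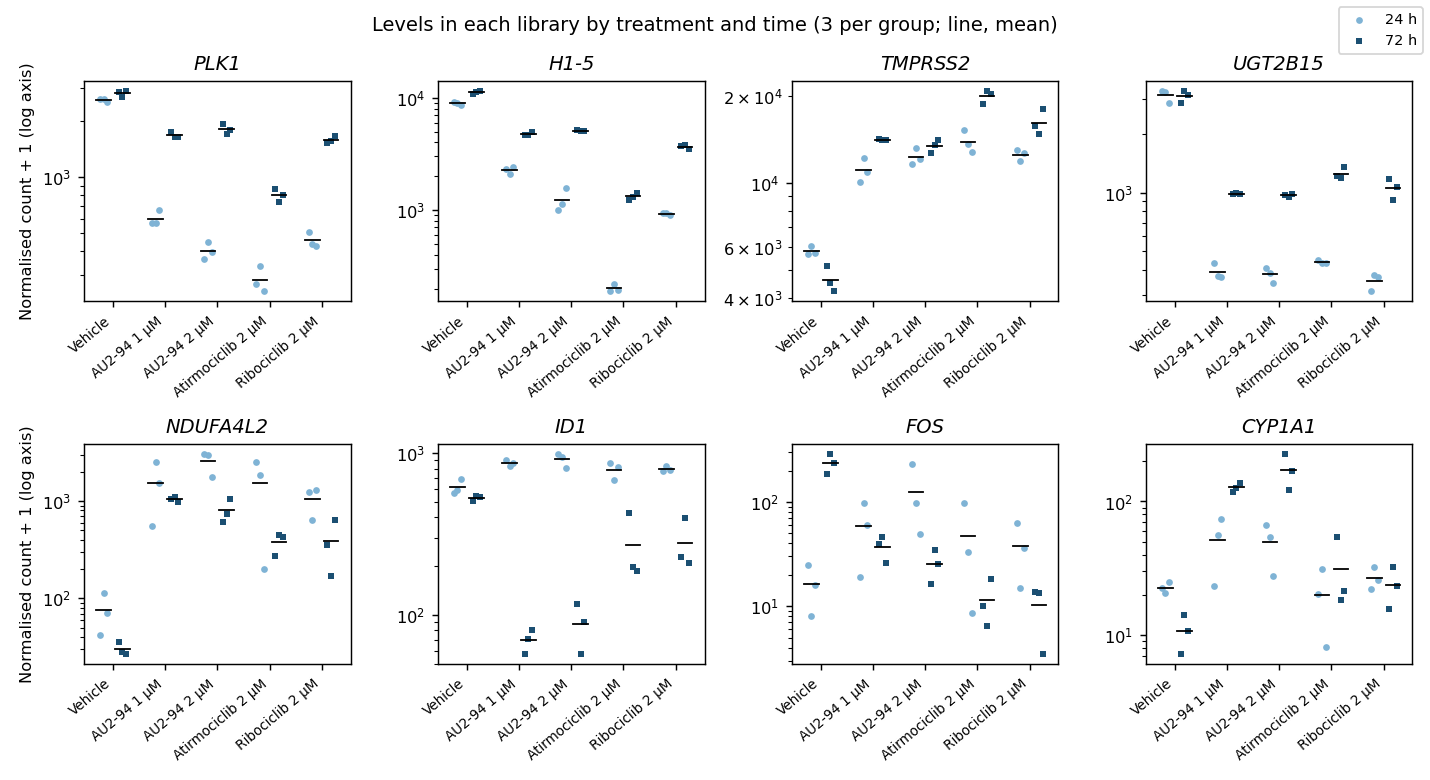
Normalised count plus 1 (y axis, log scale) of 8 genes in each library of vehicle, AU2-94 1 and 2 µM, atirmociclib 2 µM and ribociclib 2 µM at 24 h (light circles) and 72 h (dark squares), with a line at the mean of 3 libraries. PLK1, H1-5 and UGT2B15 are lower at 24 h than at 72 h under each inhibitor, ID1 falls under vehicle at 72 h with all inhibitors and lowest with AU2-94, and CYP1A1 is highest with AU2-94 at 72 h.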

How the data were processed

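Total RNA of LNCaP cells was sequenced in 36 libraries (12 groups of 3). The table deposited by the authors holds normalised counts per gene, a signal that is not whole numbers, for 29872 genes, 22060 of them with a symbol. The submitters' processing notes name STAR 2.6.1d, DESeq2 and GRCh38/hg38. The counter, annotation and strand setting are not given in the sources used here. All columns were matched to samples by library name (0 unmapped).

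Genes with at least 10 normalised counts in at least 3 of the 18 libraries at 72 h were tested on the log2(value + 1) scale with limma 3.58.1 (R 4.3.3; empirical Bayes with variance trend, 6 groups sharing 1 spread), with Benjamini-Hochberg adjustment over all genes. Since values were not whole counts, no count model was used. Calls required an adjusted p of at most 0.05 and 1 log2 unit, the thresholds of the study's methods. Fold changes of low genes are understated on this scale. Genes under 10 normalised counts in every vehicle library at 72 h passed the filter only through treated libraries. MYOD1, PLOD2, SLC16A3, HIF1A-AS3, OR51E1 and OR51E2 were among them. The time comparison fitted all 36 libraries (16850 genes). A floor of 3 normalised counts was used and covers counting error only. The labels give the replicate number as a batch. Deviations of same-numbered libraries correlated at 0.03, -0.01 and 0.03, different numbers at -0.06 to 0.03, and the fit without the block was kept.

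Named were genes of the study's question, the 10 largest changes either way at a mean of at least 50, up to 6 members past and 2 not past the test per list, and the 5 largest differences per further contrast. A few of these genes are not reported here. Members and lists were chosen with earlier results of these data known. ATF4, ASNS, CALR and the H4C14 and H4C15 sum were chosen after their values were seen. Alternatives were other pseudocounts (0.5 and 8), filters, normalisations, libraries in the fit, variance model, replicate block and single libraries left out. Removal of length and GC trends, alone and with the block, was chosen after seeing the data. On simulated data for the main comparison (16051 genes) all 200 planted genes were recovered by adjusted p alone, and 95.7% of the genes past it were planted. The planted genes had a mean of at least 50 and changes of at least 1 log2 unit, and no other gene was changed. Recovery of genes at lower levels or with smaller changes was not tested. Gene positions and exon overlaps are from GENCODE release 44 on GRCh38, near-identical transcripts from BLAST 2.17.0 and promoters from RefSeq (GRCh38.p14).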

Additional observations from a re-analysis of the deposited data

Results flagged for a closer look

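For 43 named genes the log2 fold change of AU2-94 2 µM over vehicle differed between 72 h and 24 h by at least 1 unit in the limma interaction test, and the difference (72 h minus 24 h) is given in brackets. Time and seeding density changed together and cannot be told apart.

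Cell cycle genes, which were lower than vehicle at both times, had a less negative fold change at 72 h in BRCA1 (1.23), CCNA2 (1.77), CDC20 (1.27), FOXM1 (1.16), H1-5 (1.74), H2AC16 (1.37), H2BC18 (1.06), H3C2 (1.52), HMGB2 (1.69), MKI67 (1.89), MYBL2 (1.55), PIF1 (3.11), PLK1 (2.05), RRM2 (1.61), TK1 (1.09), TOP2A (1.87), TPX2 (1.47) and TYMS (1.36). The PIF1 fold change itself was -3.59 at 24 h and -0.49 at 72 h, and the latter did not pass without the second AU2-94 library (adjusted p = 0.0684), the first vehicle library (0.122) or the second vehicle library (0.0604). Enzymes of androgen glucuronidation did likewise in UGT2B11 (1.61), UGT2B15 (1.36) and UGT2B28 (2.47).

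Other genes with a higher fold change at 72 h were ABCA1 (2.89), ANGPT2 (2.24), COL18A1 (1.23), CYP1A1 (2.98), ENSG00000287064 (1.09), ITIH4 (2.97), LAMA5 (1.25), MMP7 (2.17), OR51E1 (2.17), OR51E2 (2.11), TNS1 (2.22), UGT8 (3.04) and VWF (1.46). Among them the fold change turned sign in ABCA1 (-2.31 at 24 h and 0.57 at 72 h), ITIH4 (-2.09 and 0.88), LAMA5 (-0.43 and 0.82), COL18A1 (-0.12 and 1.11) and VWF (-0.20 and 1.26). The values of COL18A1 and VWF at 24 h were small. The rise of ITIH4 at 72 h did not pass under quantile normalisation (adjusted p = 0.0674), without the third AU2-94 library (0.0732) or without the first vehicle library (0.0925). ITIH4 shares most of its exonic bases with a gene on the same strand.

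Genes with a lower fold change at 72 h were ENSG00000290674 (-8.42), FOS (-6.05), GPER1 (-2.06), H4C12 (-9.91), ID1 (-3.21), ID2 (-1.10), ID3 (-1.93), IGFBP3 (-2.09) and SMAD9 (-1.24). For H4C12 the call was lost without a filter on low values (adjusted p = 0.0574) and without any of 6 single libraries (0.0557 to 0.087), the second or the third AU2-94 or first vehicle library at 72 h, or the third AU2-94 or the first or the third vehicle library at 24 h. H4C12 and ENSG00000290674 have near-identical copies, and their fitted differences rest on libraries listed at 0. At 24 h H4C12 was 0, 359.7 and 0 in vehicle and 119.7, 102 and 174 with AU2-94, and ENSG00000290674 was 47.02, 0 and 0 and 47.5, 92.6 and 69.2.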

How the results depend on the processing

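Depth is unknown in these normalised values, 3 libraries a group limit small differences, and 1 cell line stands behind all of them. Over 12 counts of genes, 205 of 228 values under alternatives stayed within 1.5 times the reported count. Of 3551 values for 196 gene results, 3451 kept direction and side of the threshold, 62 lost the call, 30 gained it and 8 turned sign. Of 666 values for 37 list medians, 578 moved by less than the spread, 76 moved more and 12 turned sign. The cause was not tested, apart from the fewer genes or libraries that some settings hold.

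Against vehicle, a pseudocount of 8 gave 307 higher genes, a mean of at least 100 gave 132 higher and 47 lower, and quantile normalisation 325 higher. A mean of at least 100 gave 124 higher and 17 lower against atirmociclib, 2 and 4 against ribociclib, and 283 and 28 for time. Quantile normalisation gave 109 lower against atirmociclib, 14 higher against ribociclib and 159 lower for time, and equal totals 45 lower against atirmociclib. With only the groups compared, ribociclib gave 5 higher and 5 lower, and 1 gene was lower at 2 than at 1 µM. Leaving out single libraries gave 417 to 489 higher and 109 to 137 lower genes against vehicle (1874 to 2052 and 1940 to 2232 by adjusted p alone), 229 to 300 and 53 to 75 against atirmociclib, 9 to 24 and 3 to 13 against ribociclib, 457 to 545 and 78 to 97 for time, and 0 between the doses.

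With a replicate block the counts were 491 higher and 135 lower against vehicle (2309 and 2450 by adjusted p alone), 284 and 72 against atirmociclib, 20 and 14 against ribociclib and 490 and 89 for time. Among named genes the block ended the call of ENSG00000290674 (0.0645) and made that of VIM (0.0225), and it changed no other.

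Medians that turned sign were those of matrix genes (-0.00279 at a mean of at least 100, and -0.014 to 0.27 with single libraries left out, below 0 without the second AU2-94 library), basal markers (-0.12 with no filter) and immediate early genes (-0.071 under quantile normalisation, -0.028 with only the groups compared, -0.048 with length and GC trends removed, with or without the block, and -0.095 to 0.046 with single libraries left out, above 0 only without the second vehicle library). Genes that turned sign, none past the threshold, were RB1 (0.000339) and FASN (0.037) under quantile normalisation. Others did so with single libraries left out, over which CDK6 ranged from -0.22 (without the second AU2-94 library) to 0.57, ARNT from -0.038 (without the third AU2-94 library, and below 0 without the second vehicle library) to 0.16, CDK9 from -0.014 (without the first vehicle library) to 0.080, HIF1A from -0.00941 (without the second) to 0.14 and FOXA1 from -0.072 to 0.000465 (without the third vehicle library).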
